A study of Mus musculus with 16 samples.

Results

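Brown and white fat of mice housed in the cold were compared, 4 libraries of brown adipose tissue (BAT_5C) against 4 of inguinal white adipose tissue (WAT_5C). These are 8 of the 16 libraries of the study, chosen by their titles and by the housing temperature of 5 °C that the labels give. All mice were wild-type C57BL/6 females by label, born and weaned at 30 °C and 16 weeks old at collection, and food was taken away 2 to 3 h before. Mice of the cold groups left 30 °C when 10 to 12 weeks old, spent 2 weeks at 18 °C, and were then kept at 5 °C for 3 weeks. The other 8 libraries were 4 of brown (BAT_30C) and 4 of white fat (WAT_30C) from mice that stayed at 30 °C. They were fitted together with the cold libraries, so they also shaped the filter, the scaling and the spread behind the p-values. Apart from that, they served mainly to ask whether the difference between the tissues differed between the temperatures. Poly(A) RNA was sequenced, and 54264023 to 66109342 counts per BAT_5C library and 62784647 to 71289020 per WAT_5C library were deposited.

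Brown adipocytes are packed with mitochondria and make heat: noradrenaline from sympathetic nerves raises cyclic AMP, lipolysis frees fatty acids, and uncoupling protein 1 (UCP1) lets protons return to the mitochondrial matrix without making ATP. White adipocytes store energy in a single large droplet and secrete hormones such as leptin. In the inguinal depot, long cold exposure gives rise to beige adipocytes, which also make UCP1. Cell numbers were not measured here.

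WAT_5C replicate 1 stands apart from the other WAT_5C libraries. It had 3 counts of Xist, the RNA of the inactive X chromosome, where the 15 other libraries had 11136 to 88934, although its label says female. For 4 Y-linked genes it had 17183 counts, and the others 3 to 45. Its log2 profile correlated with the other WAT_5C libraries at 0.928 to 0.951 and theirs with each other at 0.991 to 0.995. Markers of mature adipocytes and skeletal muscle were high in it and those of mammary epithelium low, as given below, so results are reported with and without it. A further source label of BAT_5C replicates 1 and 2 does not name the cold, while that of some BAT_30C libraries does. The groups follow the titles and the housing label. Fasn, the fatty acid synthase, took 4.24 and 4.09% of the counts in BAT_5C replicates 1 and 2. It took 4.10 and 4.62% in replicates 3 and 4, and 0.162 to 0.381% in the BAT_30C libraries. The tissue label names an inguinal site for the brown fat as well. Values of Ucp1, Zic1 and the Hox genes are given below. No label says that libraries of a group came from separate mice, and the p-values cover only variation from library to library, which may be technical.

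At an adjusted p under 0.05, 14098 of the 19481 genes tested differed between the tissues at 5 °C (72.4%). BAT_5C was higher for 6201 (31.8%) and WAT_5C for 7897 (40.5%). The differences in favour of white fat were the larger ones: 2512 genes were at least 8-fold higher in WAT_5C and 293 in BAT_5C, and the median size on the log2 scale was 1.91 and 0.962. Without WAT_5C replicate 1, 15125 of 19849 genes differed (76.2%), of which 6744 were higher in BAT_5C (34.0%) and 8381 in WAT_5C (42.2%). Counts did not overlap between the groups for 5613 genes with BAT_5C above (28.8%) and 6346 with WAT_5C above (32.6%). A gene or a list has to be read against these shares, since most genes differed.

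The scaling sets where 0 lies. A few transcripts took much of the brown fat libraries, and when values were set per library total instead of scaled with the trimmed mean of M-values (TMM), the median over all genes moved from -0.19 to -1.12 (log2, BAT_5C over WAT_5C). The split of calls then became 2118 higher in BAT_5C and 13882 higher in WAT_5C, 13.2% in favour of brown fat instead of 44.0%. Genes named below that then lost their calls included Adrb3 (0.14), Cd36 (0.12), Fgf21 (1.36) and Pparg (0.54). Plin1, Lipe, Tfam and Sqle also lost theirs. Adipoq (-1.13), Atp5g3 (-0.93), Irf4 (-1.19), Me1 (-0.87), Plin4 (-0.95) and Srebf2 (-1.05) gained one. So did Scd1 (-0.73), Dgat2 (-0.77) and Cidec (-0.47), which were then called higher in WAT_5C. Levels below are CPM (a gene's counts over the TMM-scaled library size, set to a common total), as mean ± SD with n = 4 per group. Fold changes are log2 of BAT_5C over WAT_5C, and list medians stand beside the median of -0.19 over all genes. List values with library totals stand beside -1.12 and beside the 2118 and 13882 calls among 19481 genes. In whole tissue, fewer cells of a type and less RNA per cell cannot be told apart.

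The difference was plain in the genes that take the most counts. RNAs encoded in mitochondria made up 17.6 to 19.4% of a BAT_5C library and 4.04 to 9.59% of a WAT_5C library, where the highest value was that of replicate 1. The mean difference was 12.43 percentage points, and the groups did not overlap (exact two-sided permutation test, p = 0.0286, the smallest that 4 against 4 can give). It was 13.55 points without WAT_5C replicate 1, where 0.0571 is the smallest p possible. Of nuclear genes, Fasn stood at 66160 ± 5480 CPM in BAT_5C and 18050 ± 9040 in WAT_5C, and Gpd1, the cytosolic glycerol-3-phosphate dehydrogenase, at 14510 ± 1680 and 1323 ± 726. Scd1, the stearoyl-CoA desaturase, was at 43350 ± 8990 CPM in BAT_5C and 40730 ± 26600 in WAT_5C and did not pass (adjusted p = 0.85). It was higher in BAT_5C by 0.63 (adjusted p = 0.0485) when WAT_5C replicate 1 was left out. Car3, a carbonic anhydrase of adipocytes, and Cfd, the complement factor adipsin, led the other way: Car3 was at 924.6 ± 409 CPM in BAT_5C and 6442 ± 4020 in WAT_5C, and Cfd at 1003 ± 389 and 5966 ± 2080.

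All 24 brown fat thermogenic genes were higher in BAT_5C (median 4.32), and in 23 of the 24 no WAT_5C library reached the lowest BAT_5C library. The count was 24 without WAT_5C replicate 1 (median 4.56) and 22 with library totals (median 3.51). Ucp1, the uncoupler itself, was at 13310, 12390, 12700 and 13790 CPM in BAT_5C replicates 1 to 4 and at 67.2, 6.08, 399 and 129 CPM in WAT_5C replicates 1 to 4. The brown fat libraries lay close together while white fat ranged widely, and its highest library held a small part of the lowest brown one. The fold change was 6.44 ± 0.95 (SE; adjusted p = 2.49e-05), 6.18 without WAT_5C replicate 1 and 7.60 without WAT_5C replicate 3, the library with the most Ucp1. By means, WAT_5C reached 1.15% of BAT_5C.

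**Figure D1:**
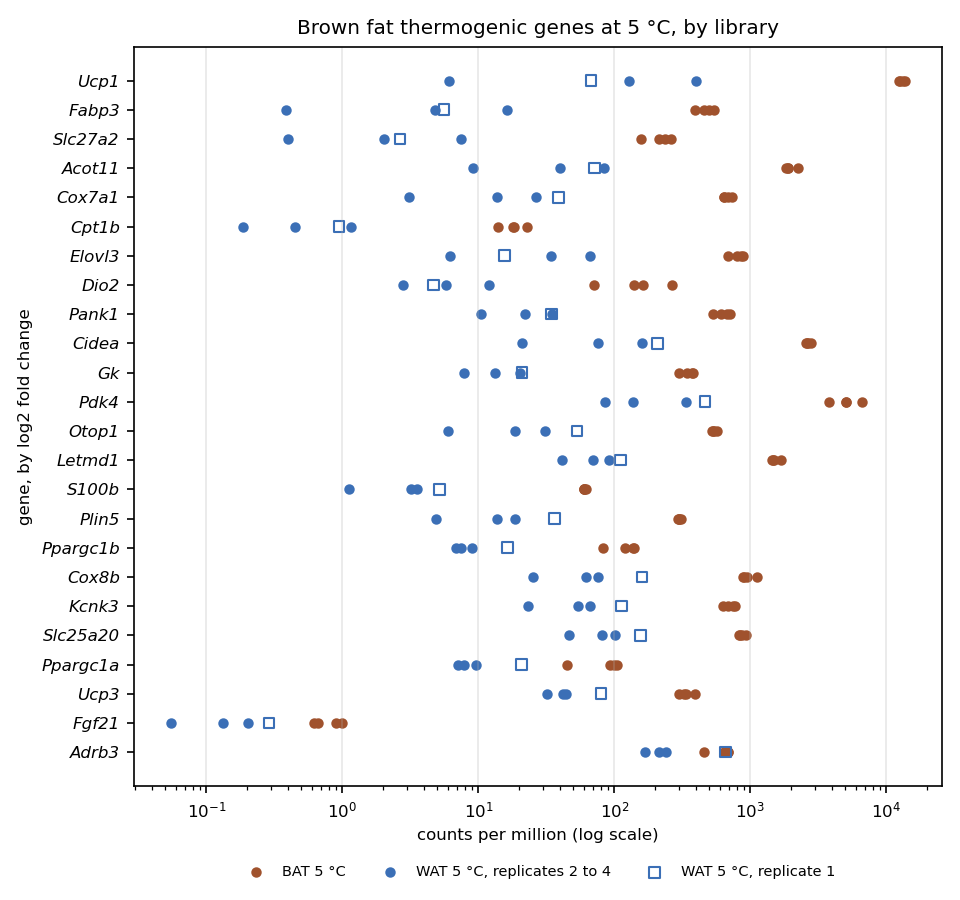
CPM (log axis) of the 24 brown fat thermogenic genes in each cold library, ordered by fold change; brown points are BAT_5C, filled blue points WAT_5C replicates 2 to 4 and open squares WAT_5C replicate 1. BAT_5C lies above every WAT_5C library for each gene but Adrb3, where WAT_5C replicate 1 sits at 656 CPM among the brown fat values of 456 to 681.

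Dio2, the deiodinase that makes active thyroid hormone inside the cell, stood at 267, 140, 70.8 and 162 CPM in BAT_5C and at 4.67, 2.79, 12.0 and 5.80 in WAT_5C (4.66 ± 0.65, adjusted p = 1.47e-05). Cidea, a lipid droplet protein of brown and beige cells, was at 2791, 2620, 2644 and 2584 CPM in BAT_5C and at 208, 20.8, 160 and 75.6 in WAT_5C (4.52 ± 0.62, adjusted p = 1.13e-05). As for Ucp1, the lowest white fat value was that of replicate 2, and among WAT_5C replicates 2 to 4 replicate 2 was the lowest in 23 of the 24 genes and replicate 3 the highest in 22. Elovl3, which lengthens fatty acids in brown fat, was at 887, 792, 684 and 847 CPM in BAT_5C and at 15.5, 6.17, 65.8 and 34.5 in WAT_5C (4.72 ± 0.80, and 5.42 without WAT_5C replicate 3). Ppargc1a, the coactivator that drives mitochondrial biogenesis, was at 99.4, 92.3, 44.6 and 104 CPM and at 20.8, 7.07, 9.63 and 7.84 (2.91 ± 0.40, adjusted p = 1.31e-05). The difference was thus smaller for the regulator than for these effectors in the fitted values, though the genes were not tested against each other.

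Carriers and enzymes of fuel use showed the same order of tissues. Slc25a20, which carries acylcarnitines into mitochondria, was 3.17 ± 0.28 higher in BAT_5C, Gk, the glycerol kinase, 4.48 ± 0.34, and Pdk4, which restrains pyruvate dehydrogenase, 4.33 ± 0.49. Fabp3, a fatty acid binding protein, was higher by 6.13 ± 0.93 and Slc27a2, an acyl-CoA synthetase and transporter, by 6.11 ± 0.67. Without WAT_5C replicate 3 these became 7.05 and 7.02. Letmd1, a mitochondrial inner membrane protein, was at 1529 ± 108 CPM in BAT_5C and 78.58 ± 30 in WAT_5C, and Kcnk3, a potassium channel, at 707.2 ± 63.6 and 64.06 ± 37.3. Fgf21, a secreted factor, stayed under 1 CPM on average in both tissues (0.7913 ± 0.18 and 0.1693 ± 0.0993) yet passed the test (adjusted p = 0.00461).

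The receptor for noradrenaline gave the smallest difference of the list. Adrb3, the beta-3 adrenergic receptor, was at 639, 680, 456 and 681 CPM in BAT_5C and at 656, 168, 214 and 241 in WAT_5C (0.94 ± 0.36, adjusted p = 0.027). Without WAT_5C replicate 1 the difference was 1.55 (adjusted p = 2.2e-05), while without BAT_5C replicate 2 or 4 or WAT_5C replicate 2, 3 or 4 it was 0.73 to 0.89 and did not pass (adjusted p = 0.056 to 0.0798). Its paralog Adrb1 was higher in BAT_5C by 2.97 ± 0.26.

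Cyclic AMP acts on genes through factors of the CREB family, which bind the palindrome TGACGTCA, so the 250 bases before the start of each gene (RefSeq, build GRCm38.p6) were searched on both strands for it and for its half-site TGACG, which every palindrome contains. Of the 24 thermogenic genes, 18 had an entry. The palindrome stood in 1 of the 18, Dio2 (5.56%), against 357 of all 13039 tested genes with an entry (2.74%). The half-site stood in 5 of the 18 (Ucp1, Dio2, Ppargc1a, Fgf21 and Fabp3, 27.8%), against 27.6% of all windows. The windows of Dio2 (chr12:90739039-90739288, minus strand) and Ucp1 (chr8:83290098-83290347, plus strand) are shown because Dio2 is the only gene of the list with the palindrome and Ucp1 encodes the uncoupler itself. Capitals mark the palindrome in the first, which begins 95 bases before the start, and the half-site in the second, which begins 147 bases before it.
Dio2: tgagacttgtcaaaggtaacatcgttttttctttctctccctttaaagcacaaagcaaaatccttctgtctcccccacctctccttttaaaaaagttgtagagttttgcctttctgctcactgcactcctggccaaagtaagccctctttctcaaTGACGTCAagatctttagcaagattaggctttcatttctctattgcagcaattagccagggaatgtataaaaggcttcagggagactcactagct
Ucp1: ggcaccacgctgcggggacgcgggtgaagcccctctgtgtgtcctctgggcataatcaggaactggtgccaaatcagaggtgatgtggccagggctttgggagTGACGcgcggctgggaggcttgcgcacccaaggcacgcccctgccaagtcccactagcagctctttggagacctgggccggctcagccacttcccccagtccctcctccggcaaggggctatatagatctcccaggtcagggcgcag
A match is a run of letters and not a measured binding site, and the share of these genes with a half-site was close to that of all genes.

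Of 19 tested genes in the list of factors that make a cell brown, 10 were higher in BAT_5C and 3 in WAT_5C (median 1.02). The counts were 11 and 2 without WAT_5C replicate 1, and 8 and 7 with library totals (median 0.13, against -1.12 for all genes). Zic1, a zinc finger factor used as a mark of classical brown fat, was at 17.6, 12.4, 8.50 and 9.54 CPM in BAT_5C and at 0.128, 0.0661, 0.0238 and 0.0551 in WAT_5C (7.48 ± 0.56, adjusted p = 3.79e-08). White fat was near 0 in every library, replicate 1 included. Prdm16, the coregulator of brown and beige identity, was at 44.0, 42.0, 48.2 and 61.3 CPM and at 19.0, 7.52, 7.48 and 9.89, a smaller but non-overlapping difference (2.16 ± 0.30, adjusted p = 1.45e-05). Ebf2, which opens brown fat genes, was higher by 1.73 ± 0.29, Pparg, the master regulator of adipocytes, by 1.38 ± 0.32, and the estrogen-related receptors Esrra and Esrrg by 2.56 ± 0.15 and 3.30 ± 0.22. Irf4, a partner of PGC-1alpha, was at 44.71 ± 13.6 CPM in BAT_5C and 53.2 ± 3.73 in WAT_5C and did not pass (adjusted p = 0.326). Bmp8b, a signal that raises the response to noradrenaline, had 82.1, 133, 134 and 129 CPM in BAT_5C and 0.0800, 0.0771, 0.344 and 0.242 in WAT_5C (9.28 ± 0.86). Bmp7 was lower in BAT_5C by 3.40 on the log2 scale.

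Hox genes, which record position along the body, divided the tissues by paralog number. Of 28 tested, 8 were higher in BAT_5C and 11 in WAT_5C, beside 31.8% and 40.5% of all genes, and 4 and 18 with library totals (median -0.39, and -1.33 with library totals). With TMM scaling all 8 of the first carry numbers between 1 and 6 (16 tested), and 10 of the 11 carry numbers of 7 or more (12 tested), a grouping made after the values were seen. Hoxa5 was at 27.6, 28.0, 27.1 and 31.2 CPM in BAT_5C and at 3.92, 2.84, 2.41 and 2.72 in WAT_5C (3.26 ± 0.17, adjusted p = 2.4e-09). Hoxc10 had 0 counts in all 4 BAT_5C libraries and 24.0, 9.29, 9.84 and 11.1 CPM in WAT_5C, at least 688-fold higher taking 3 counts over the 4 BAT_5C libraries as the floor. Hoxa10 was likewise at 0 in BAT_5C (at least 308-fold higher in WAT_5C), and Hoxc9 was lower in BAT_5C by 6.25 on the log2 scale (by 7.04 without BAT_5C replicate 3). All 4 WAT_5C libraries, replicate 1 included, had the pattern of Hoxc10 and Hoxa5, and the brown fat libraries, whose tissue label names an inguinal site, had the other.

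Markers proposed for white fat were mostly lower in BAT_5C: 14 of 16 tested, with 1 higher (median -2.17), and 12 and 1 without WAT_5C replicate 1. Retn, the adipokine resistin, was at 67.03 ± 32.6 CPM in BAT_5C and 707 ± 302 in WAT_5C, Dpt, a matrix protein, at 56.4 ± 10.1 and 326.8 ± 76.3, and Psat1, an enzyme of serine synthesis, at 5.573 ± 1.14 and 52.03 ± 26.4. Lep, the hormone leptin, was at 22.5, 3.04, 32.3 and 14.4 CPM in BAT_5C and at 203, 57.5, 13.1 and 57.2 in WAT_5C. Its difference passed with all libraries (-2.20 ± 0.73, adjusted p = 0.0142) and not without WAT_5C replicate 1 (-1.26, adjusted p = 0.0809). Of 15 beige fat markers, 9 were higher in WAT_5C and 5 in BAT_5C (median -1.48). Tmem26, a surface marker of beige cells, was at 0.0283, 0.0456, 0.0471 and 0.0741 CPM in BAT_5C and at 2.54, 3.93, 2.82 and 2.74 in WAT_5C (-5.88 ± 0.33, adjusted p = 5.55e-09). Tnfrsf9 (CD137) and Cd40 were lower in BAT_5C by 2.20 and 3.34 on the log2 scale; both are also made by immune cells, whose markers were higher in WAT_5C too, and their part in the result was not tested. P2rx5, an ATP-gated ion channel, and Slc36a2, an amino acid transporter, surface markers shared by beige and brown cells, were higher in BAT_5C by 2.84 ± 0.33 and 1.74 ± 0.21.

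Most genes of glucose use were higher in brown fat. Of 21 genes of glucose uptake and glycolysis, 15 were higher in BAT_5C and 2 in WAT_5C (median 2.57), and 18 and 2 without WAT_5C replicate 1. Slc2a4, the insulin-dependent transporter GLUT4, was at 891.2 ± 50.9 CPM in BAT_5C and 229.1 ± 126 in WAT_5C (1.96 ± 0.28), whereas Slc2a1, the widespread transporter GLUT1, was lower in BAT_5C by 1.28 on the log2 scale. Both hexokinases were higher in brown fat: Hk1 was at 264, 280, 346 and 294 CPM in BAT_5C and at 27.3, 57.7, 54.1 and 52.0 in WAT_5C (2.63 ± 0.18, adjusted p = 1.99e-08), and Hk2 at 1308 ± 298 and 130.5 ± 84.4. Of the phosphofructokinases, Pfkl was higher by 3.77 ± 0.26 and Pfkp by 2.57 ± 0.17. The muscle form Pfkm did not pass (1.13 ± 0.62, adjusted p = 0.114), but passed without WAT_5C replicate 1 (2.18, adjusted p = 0.00145), the library with the most muscle transcripts. Ldhb, the lactate dehydrogenase subunit of oxidative tissues, was at 1209 ± 49.8 and 73.79 ± 39.7 CPM. Aldoc ran against the list, lower in BAT_5C by 2.18 on the log2 scale. Of 20 genes of glycogen metabolism 13 were higher in BAT_5C and 1 in WAT_5C (median 1.71), among them Ppp1r3b, a glycogen-targeting subunit of protein phosphatase 1, at 1142 ± 171 CPM in BAT_5C and 72.14 ± 35.1 in WAT_5C.

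Fat synthesis differed enzyme by enzyme. Of 20 genes of de novo lipogenesis, 11 were higher in BAT_5C and 2 in WAT_5C (median 1.01), 16 and 2 without WAT_5C replicate 1, and 8 and 5 with library totals (median 0.15). Fasn was at 65140, 61520, 63890 and 74070 CPM in BAT_5C and at 30480, 9039, 14970 and 17710 in WAT_5C (1.87 ± 0.39, adjusted p = 0.000598). The highest white fat library was again replicate 1, and no WAT_5C library reached a BAT_5C library. Acly, which makes the acetyl-CoA for this pathway, was higher by 1.49 ± 0.30, Acacb, the acetyl-CoA carboxylase at mitochondria, by 2.87 ± 0.33, and Mlxipl, the glucose-sensing factor ChREBP, by 2.04 ± 0.19. Srebf1, the sterol-sensing regulator, was not called at 503.3 ± 116 and 387.1 ± 134 CPM (adjusted p = 0.193), though it was without WAT_5C replicate 1 (0.61, adjusted p = 0.0292). Me1, the malic enzyme, stood at 3205 ± 326 and 3226 ± 1470 CPM, and Dgat2, which makes triglyceride, at 1319 ± 132 and 1266 ± 715, and neither passed. The desaturases Fads1 and Fads2 were lower in BAT_5C by 1.66 and 0.90 on the log2 scale.

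Of 22 genes of cholesterol synthesis, 19 were higher in BAT_5C and 0 in WAT_5C (median 0.93), and 18 and 0 without WAT_5C replicate 1. With library totals it was 6 and 4 with a median of 0.04, against -1.12 for all genes. Hmgcs1, an early enzyme, was at 628.5 ± 41.5 and 178.9 ± 58 CPM. Sqle, the squalene epoxidase, was higher in BAT_5C by 0.83 ± 0.22, but at -0.10 with library totals. The regulator Srebf2 did not pass (86.9 ± 6.72 against 91.15 ± 20.7 CPM).

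In the lists of fatty acid oxidation and respiration nearly all members were higher in BAT_5C. For fatty acid oxidation 20 of 21 genes were higher in BAT_5C and 1 in WAT_5C (median 2.96). For the tricarboxylic acid cycle and pyruvate dehydrogenase it was 23 of 23 (median 2.56), for nuclear subunits of complex I 36 of 36 (2.21), of complexes II and III 14 of 14 (2.51), of complex IV 16 of 17 (2.19) and of complex V 13 of 16 with 2 lower (1.99). With library totals these medians stayed above 0. Hadha and Hadhb, the trifunctional protein of beta-oxidation, were at 4894 ± 196 and 7215 ± 238 CPM in BAT_5C and 467.7 ± 242 and 619.5 ± 361 in WAT_5C. Acsl5, which activates fatty acids, was at 2199, 2164, 2100 and 2516 CPM in BAT_5C and at 94.4, 78.9, 160 and 110 in WAT_5C (4.34 ± 0.20, adjusted p = 1.13e-09). Cs, the citrate synthase, differed by 2.26 ± 0.27, Ndufs8 of complex I by 2.63 ± 0.20, Sdhb of complex II by 2.83 ± 0.27, Uqcrc2 of complex III by 2.95 ± 0.27 and Atp5b of complex V by 2.63 ± 0.30. The 2 lower members of complex V were Atpif1, the inhibitor of the ATP synthase (4.112 ± 1.07 CPM in BAT_5C, 12.41 ± 3.99 in WAT_5C), and Atp5g1, 1 of 3 genes for its ring subunit (10.79 ± 2.98 and 36.93 ± 4.94). A second ring gene, Atp5g3, was at 291.6 ± 8.78 and 305.4 ± 120 CPM and did not pass.

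Of the 13 protein genes of the mitochondrial genome, 11 were higher in BAT_5C and 0 in WAT_5C (median 2.45). mt-Co1 of complex IV was at 86730, 96830, 99880 and 98300 CPM in BAT_5C and at 40130, 11120, 17050 and 17230 in WAT_5C (2.16 ± 0.38, adjusted p = 0.000141). The highest white fat value was again that of replicate 1. The exceptions were mt-Co3, at 39.23 ± 9.5 and 64.3 ± 92.8 CPM, and mt-Nd4l, at 42.15 ± 19.7 and 15.13 ± 18. Both were low beside mt-Co1, at 95430 ± 5940 CPM in BAT_5C and 21380 ± 12800 in WAT_5C. Mitochondrial genes have copies of like sequence in the nuclear genome. Whether these affected mt-Co3 and mt-Nd4l was not tested, so their values are uncertain. mt-Nd4l passed without WAT_5C replicate 1 (2.73, adjusted p = 0.0037). Of 24 genes of mitochondrial biogenesis and dynamics, 22 were higher in BAT_5C and 2 in WAT_5C (median 1.40), and 16 and 6 with library totals (median 0.50). Among them were Tfam, which packs and transcribes mitochondrial DNA (1.05 ± 0.07, but 0.12 and not called with library totals), Polrmt, the mitochondrial RNA polymerase (1.67 ± 0.11), and the fusion genes Opa1 (1.90 ± 0.18) and Mfn2 (1.88 ± 0.24). Nrf1, a nuclear regulator of respiratory genes, was lower in BAT_5C by 0.33 on the log2 scale.

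Paralogs of 1 family differed in the size of their fitted values, and Ucp2 and Cpt1a also in direction. Of the uncouplers, Ucp3 was higher in BAT_5C by 2.77 ± 0.37 and Ucp2, which is abundant in immune cells, lower by 1.45 on the log2 scale. Cpt1b, the muscle and brown fat form of the enzyme that admits long-chain fatty acids to mitochondria, was at 18.25 ± 3.59 CPM in BAT_5C and 0.6838 ± 0.443 in WAT_5C, and Cpt1a, the liver form, at 31.4 ± 4.86 and 71.75 ± 17.8. In complex IV the forms of heart, muscle and brown fat differed more than the general forms in the fitted values for 2 subunits: Cox7a1 by 5.04 ± 0.68 and Cox7a2 by 2.19 ± 0.23, and Cox8b by 3.57 ± 0.44 and Cox8a by 1.99 ± 0.23. Cox7a1 was at 679, 641, 642 and 730 CPM in BAT_5C and at 38.7, 3.09, 26.5 and 13.7 in WAT_5C, where replicate 2 was again the lowest. For another subunit the general form Cox4i1 differed by 2.00 ± 0.22 and Cox4i2 by 1.40 ± 0.20, and for the last Cox6a1 by 2.47 ± 0.27 while Cox6a2, also a muscle gene, did not pass (0.46 ± 1.42). None of these differences within a family was tested itself.

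**Figure D2:**
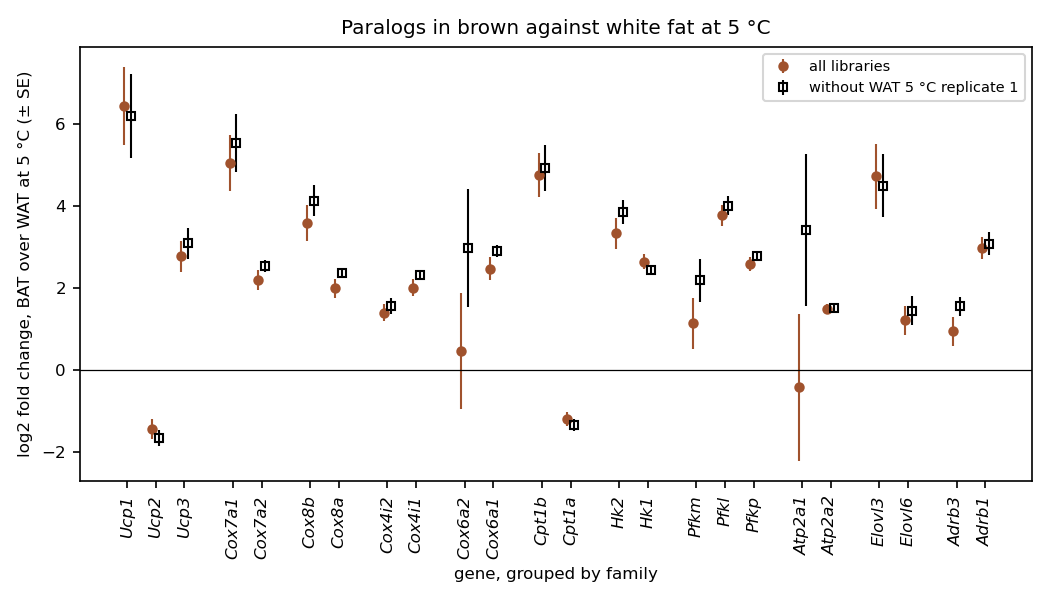
Log2 fold change of BAT_5C over WAT_5C with its SE for genes grouped by family, with all libraries (brown) and without WAT_5C replicate 1 (open squares). Ucp2 and Cpt1a lie below 0 in both fits while their paralogs lie above it, and the muscle genes Cox6a2, Pfkm and Atp2a1 shift most without that library.

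Storage and release of fat gave a lower list median than oxidation. Of 19 lipid droplet and lipolysis genes, 14 were higher in BAT_5C and 0 in WAT_5C (median 1.04), 17 and 0 without WAT_5C replicate 1 (median 1.80), and 9 and 3 with library totals (median 0.23). Plin5, the droplet protein that ties droplets to mitochondria, was at 299.5 ± 6.28 CPM in BAT_5C and 18.41 ± 13.2 in WAT_5C, and Plin2, found on small droplets, at 3224 ± 449 and 456.8 ± 183. Plin1, the coat of large droplets, differed by 1.04 ± 0.31. The lipases of successive steps were all higher: Pnpla2 by 1.57 ± 0.38 (2.26 without WAT_5C replicate 1), Lipe by 1.04 ± 0.30 and Mgll by 1.65 ± 0.31. With library totals Plin1 and Lipe were at 0.23 and 0.22 and were not called. Cidec and Plin4, further droplet proteins, did not pass (0.38 ± 0.26 and -0.17 ± 0.40). Both did without WAT_5C replicate 1 (0.77, adjusted p = 0.00114, and 0.56, adjusted p = 0.0479).

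For uptake of lipids 9 of 17 genes were higher in BAT_5C and 2 in WAT_5C (median 0.79). The counts were 4 and 5 with library totals (median -0.097, against -1.12 for all genes). Lpl, the lipase that frees fatty acids from lipoproteins, was at 6527, 7140, 5801 and 6327 CPM in BAT_5C and at 9215, 1939, 2791 and 2646 in WAT_5C. WAT_5C replicate 1 lay above every brown fat library and the other 3 below. The difference did not pass with all libraries (0.64 ± 0.38, adjusted p = 0.143) and passed without that replicate (1.38, adjusted p = 4.88e-06). Cd36, the fatty acid translocase, was at 3016 ± 105 and 1607 ± 1290 CPM (0.91 ± 0.37, adjusted p = 0.0387). Leaving out WAT_5C replicate 1 gave 1.63 (adjusted p = 9.22e-07), and leaving out any other cold library gave 0.67 to 0.93 without passing (adjusted p = 0.0569 to 0.109). Lmf1, which matures lipases, differed by 1.76 ± 0.10. The lower members were Apoe (394.3 ± 80.5 and 1239 ± 126 CPM), an apolipoprotein also made by macrophages, and Scarb1, the receptor for high-density lipoprotein (75.19 ± 10.7 and 117.9 ± 23.4).

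Genes of alternatives to UCP1 for making heat went both ways, as all tested genes did. In the creatine cycle 3 of 8 genes were higher in BAT_5C and 3 in WAT_5C, beside 31.8% and 40.5% of all genes. The median of -0.05 became 1.55 without WAT_5C replicate 1. Ckb, a creatine kinase, was at 149.5 ± 32.2 CPM in BAT_5C and 30.95 ± 5.68 in WAT_5C. Alpl, the phosphatase reported to act in this cycle, was at 64.8, 78.0, 60.5 and 78.9 CPM and at 6.87, 11.7, 11.1 and 11.7, clearly separate (2.77 ± 0.15, adjusted p = 4.17e-09). The enzymes that make creatine, Gatm and Gamt, were lower in BAT_5C by 1.14 and 0.87 on the log2 scale. In calcium cycling 7 of 14 genes were higher in BAT_5C and 3 in WAT_5C, beside the same shares, and 5 and 3 with library totals. Atp2a2, the calcium pump SERCA2, was at 527.7 ± 58.3 and 189.8 ± 15.6 CPM, and Ryr2, a calcium release channel, at 6.842 ± 0.519 and 0.7927 ± 0.302. Atp2a1, the pump of skeletal muscle, was at 111, 389, 181 and 0.247 CPM in BAT_5C and at 870, 1.06, 13.2 and 33.4 in WAT_5C, a spread within each tissue that followed muscle markers. Their sum was 276 to 2632 CPM in BAT_5C, 23.2 to 248 in WAT_5C replicates 2 to 4 and 6716 in WAT_5C replicate 1. The sum includes Mb, myoglobin, at 107.9, 311.3, 164.7 and 221.7 CPM in BAT_5C replicates 1 to 4. In BAT_5C replicate 4 Mb made up most of the sum of 276, and Ckm was at 0. The sums therefore do not rank BAT_5C and WAT_5C by muscle RNA alone. The part of muscle RNA in Atp2a1 and Ckm (-0.43 ± 1.80 and -1.10 ± 1.91, and 3.40 and 3.41 without that library, not called in either case) was not tested.

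Of 32 genes of adrenergic and cyclic AMP signalling, 18 were higher in BAT_5C and 10 in WAT_5C (median 0.84). The counts were 12 and 14 with library totals (median -0.044, against -1.12 for all genes). Adcy3, an adenylyl cyclase, was at 478.2 ± 66.7 CPM in BAT_5C and 26.6 ± 8.14 in WAT_5C (4.17 ± 0.26, adjusted p = 9.98e-09), Gnas, the stimulatory G protein, differed by 2.65 ± 0.27 and Pde4d, which degrades cyclic AMP, by 3.05 ± 0.31. Pde7a was lower in BAT_5C by 1.84 on the log2 scale. For thyroid hormone 7 of 12 genes were higher in BAT_5C and 3 in WAT_5C (median 1.01). The counts were 4 and 5 with library totals (median 0.14, against -1.12 for all genes). The receptors Thra and Thrb were at 1.09 ± 0.14 and 1.11 ± 0.30, and at 0.20 and 0.29 with library totals, where neither was called.

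Most adipokines were lower in BAT_5C: 8 of 14, with 2 higher (median -1.07). Adipoq, adiponectin, was not among them, at 1018, 812, 780 and 792 CPM in BAT_5C and at 1811, 694, 828 and 807 in WAT_5C, which overlapped (-0.28 ± 0.26, adjusted p = 0.34). Its value was 0.12 without WAT_5C replicate 1 (adjusted p = 0.513). Nampt, which makes a precursor of NAD, was higher by 1.94 ± 0.21. Among factors secreted by brown fat 8 of 17 were higher in BAT_5C and 6 in WAT_5C (median 0.79). The counts were 5 and 7 with library totals (median -0.097, against -1.12 for all genes). Kng2, a kininogen, was at 200.8 ± 38.1 CPM in BAT_5C and 1.535 ± 0.814 in WAT_5C, Vegfa, the signal for vessel growth, at 784.2 ± 76.4 and 217.2 ± 86.7, and Fndc5, the precursor of irisin, at 24.75 ± 2.28 and 1.613 ± 0.431. Slit2 was lower in BAT_5C by 4.16 and Igf1 by 2.15 on the log2 scale.

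**Figure D3:**
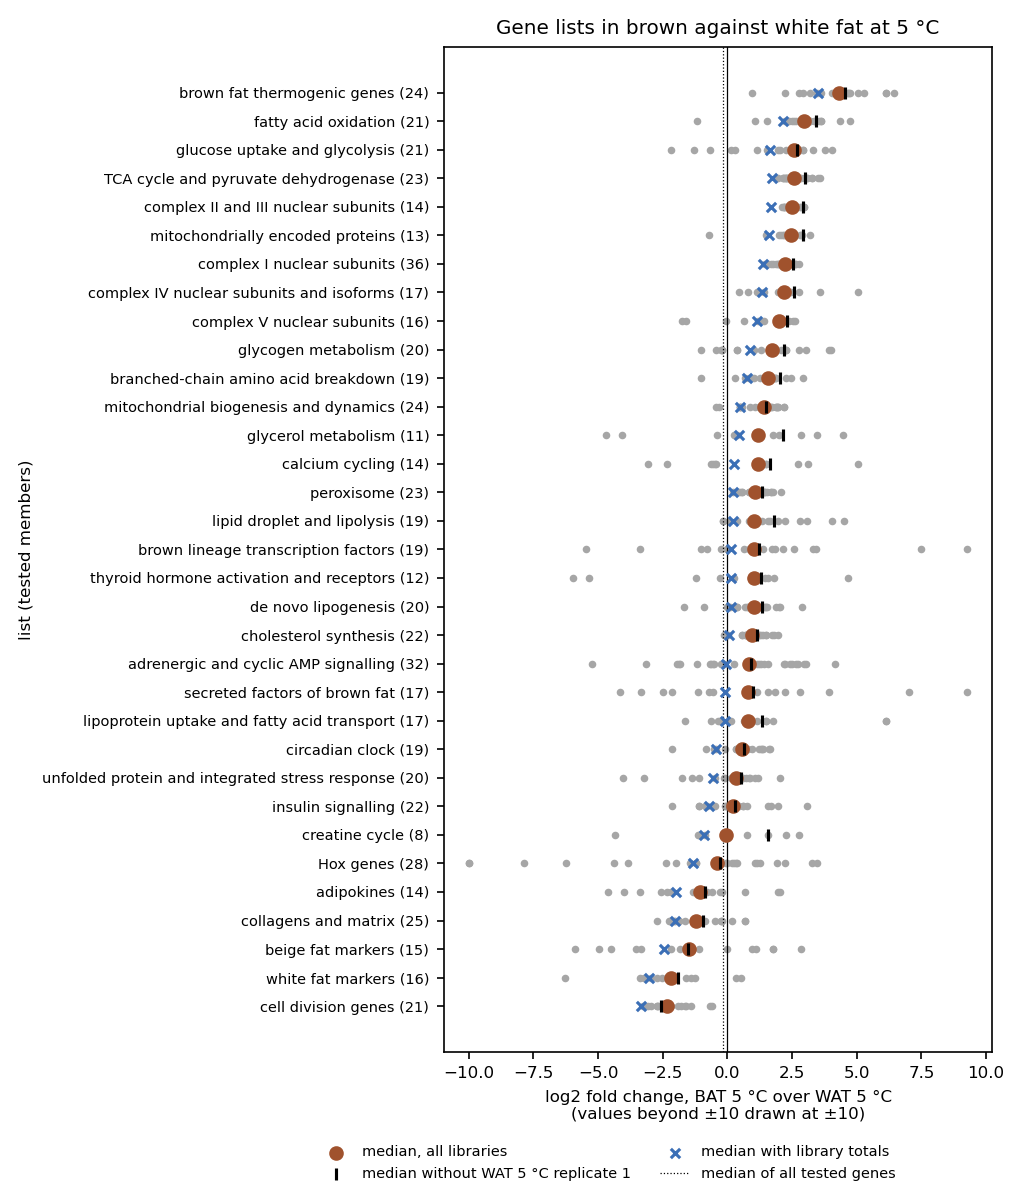
Log2 fold change of BAT_5C over WAT_5C for the tested members of 33 lists (grey points), with the list median from all libraries (brown), without WAT_5C replicate 1 (black tick) and with library totals (blue cross). The thermogenic list stands at 4.32, the lists of respiration between 1.99 and 2.56, and white fat markers and cell division genes below -2; library totals shift the medians to the left.

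Matrix, cell division and immune genes were higher in white fat. Of 25 collagen and matrix genes 20 were higher in WAT_5C and 2 in BAT_5C (median -1.22). The 2 did not pass without WAT_5C replicate 2, 3 or 4. Col1a1 and Col3a1, fibrillar collagens, were at 151.6 ± 29 and 392.1 ± 84 CPM in BAT_5C and 668 ± 66.9 and 1815 ± 232 in WAT_5C. Of 21 cell division genes, 20 were higher in WAT_5C and 0 in BAT_5C (median -2.35), with Mki67 at 1.964 ± 0.679 and 19.14 ± 8.46 CPM. The count of markers higher in WAT_5C was 15 of 15 for T and NK cells (median -6.17), 12 of 12 for B cells (-6.65) and 14 of 14 for macrophages (-2.17), with 0 higher in BAT_5C. Summed, the B cell markers were at 39.5 to 63.7 CPM in BAT_5C, 1395 to 1990 in WAT_5C replicates 2 to 4 and 733 in WAT_5C replicate 1. T and NK cell markers were at 4.60 to 9.40, 551 to 673 and 156 CPM in the same order. Cr2, a complement receptor of B cells and follicular dendritic cells, was at 0.2972 ± 0.169 and 83.42 ± 44.3 CPM, and Lck, a T cell kinase, at 0.4416 ± 0.156 and 67.24 ± 31.4. Cell division genes and immune markers were thus high in the same libraries, and the part of immune cells in the cell division counts was not tested.

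Of 14 tested mammary epithelium markers all were higher in WAT_5C (median -5.53). Their sum was 34.5 to 101 CPM in BAT_5C and 1789 to 1826 in WAT_5C replicates 2 to 4, but 78.1 in WAT_5C replicate 1. Krt8, a keratin of gland cells, had 0, 13.0, 4.69 and 2.57 CPM in BAT_5C and 2.54, 320, 269 and 326 in WAT_5C (-5.49 ± 1.59, adjusted p = 0.00618, and -6.55 without BAT_5C replicate 2), so replicate 1 lies within the brown fat range. Fibroblast markers summed to 1658 to 2277 CPM in BAT_5C and 5832 to 10840 in WAT_5C, with 12 of 14 higher in WAT_5C. Pdgfra, a marker of fat progenitors, was at 23.73 ± 4.39 and 79.32 ± 7.5 CPM, while Dlk1, an inhibitor of fat cell formation, ran the other way at 7.303 ± 2.08 and 0.581 ± 0.208.

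The counts of vessel and blood markers changed with the scaling, as those of all genes did. Of 14 endothelial markers 11 were higher in BAT_5C and 2 in WAT_5C (median 0.74). With library totals it was 4 and 4 (median -0.16), beside 2118 and 13882 of all 19481 genes (median -1.12). Their sum was 1580 to 1671 CPM in BAT_5C and 654 to 1001 in WAT_5C. Kdr, the receptor for vascular endothelial growth factor, differed by 1.76 ± 0.18 and Emcn, of capillaries and veins, by 1.55 ± 0.12. The 2 lower markers were Lyve1 (6.374 ± 1.85 and 34.01 ± 8.24 CPM) and Prox1 (0.1477 ± 0.102 and 3.809 ± 1.56), both of lymphatic vessels. Flt4, a further lymphatic marker in the list, was not called lower. Of 10 markers of pericytes and smooth muscle 5 were higher in BAT_5C and 4 in WAT_5C (median 0.31), and 3 and 6 with library totals (-0.64), with Rgs5, of pericytes, at 705.8 ± 20.9 and 145.3 ± 42 CPM. Of 5 tested red blood cell markers 5 were higher in BAT_5C (median 1.49), and 2 with library totals. Markers of mature adipocytes summed to 25500 to 27140 CPM in BAT_5C, 7885 to 11920 in WAT_5C replicates 2 to 4 and 32110 in WAT_5C replicate 1. Of those 10 markers 4 were higher in BAT_5C with all libraries and 8 without that replicate, and with library totals the median changed from 0.65 to -0.14. The adipocyte sum was thus higher in BAT_5C than in WAT_5C replicates 2 to 4, as the metabolic genes above were, and its part in those results was not tested.

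**Figure D4:**
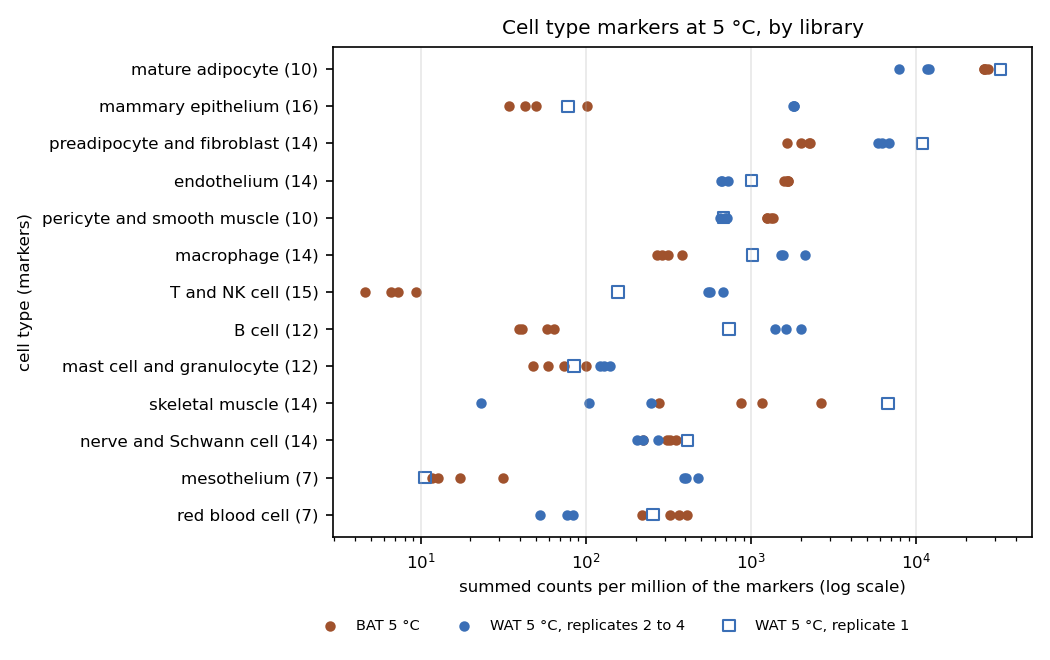
Summed CPM (log axis) of cell type markers in each cold library; brown points are BAT_5C, filled blue points WAT_5C replicates 2 to 4 and open squares WAT_5C replicate 1, with the number of markers in brackets. WAT_5C replicate 1 lies beside the brown fat libraries for mammary epithelium (78.1 CPM) and mesothelium (10.7 CPM), lists that share Krt19. Of the mesothelium markers, 4 were tested. For skeletal muscle (6716 CPM) WAT_5C replicate 1 lies above all others.

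The largest differences in favour of brown fat, beside Ucp1, Bmp8b, Zic1, Kng2, Fabp3 and Slc27a2, were Rspo4, an amplifier of Wnt signals (18.73 ± 5.39 CPM in BAT_5C and 0.07642 ± 0.0466 in WAT_5C), Gmpr, a reductase of guanosine monophosphate (577.1 ± 95.4 and 5.201 ± 2.9), and Mb, the oxygen store myoglobin (201.4 ± 86.8 and 2.297 ± 0.944). Cpn2 (86.94 ± 6.23 and 0.8969 ± 0.721), Acot12 (7.882 ± 0.504 and 0.09914 ± 0.1) and Cabcoco1 (6.835 ± 1.92 and 0.09845 ± 0.0395) completed the 12. The 12 each way were ranked among 7857 genes called with and without WAT_5C replicate 1. These had at least 5 CPM in the higher tissue, no overlap and no predicted gene name. Without WAT_5C replicate 3 the fold changes of Cpn2 and Acot12 rose from 6.60 and 6.27 to 7.31 and 7.27. Of the 12 in favour of white fat, 6 had 0 counts in BAT_5C, for which only a lower bound holds: at least 981-fold for Dsc3, a desmocollin of stratified epithelia, 688 for Hoxc10, 659 for Il22ra2, the decoy receptor of interleukin 22, 419 for Ighg1, an immunoglobulin heavy chain, 333 for Mup12, a major urinary protein with near-identical copies, and 308 for Hoxa10. Ighg1 and Mup12 ranged widely (7.219 ± 8.63 and 5.594 ± 10.2 CPM in WAT_5C), and without WAT_5C replicate 2 and 4 their fitted values went from -11.91 to -10.84 and from -11.55 to -8.10. Izumo1r and Grem1, a blocker of bone morphogenetic proteins, had 1 count in BAT_5C, which gives ratios of 1090 (95% counting interval 195 to 42900) and 923 (165 to 36500). Their fitted values of -9.63 and -9.38 became -11.76 and -11.52 without BAT_5C replicate 2 and 4, the libraries with that count. Glycam1, made by the venules of lymph nodes and by the mammary gland, was at 0.02414 ± 0.0279 CPM in BAT_5C and 375.2 ± 249 in WAT_5C, and Marco, a scavenger receptor of macrophages, at 0.03447 ± 0.0537 and 49.01 ± 24.1 (-10.54, and -12.30 without BAT_5C replicate 1). Apol7c (-10.28, and -11.02 without BAT_5C replicate 3) and Alb (0.03239 ± 0.0258 and 32.57 ± 25.3 CPM) followed. Several of these are immune or epithelial genes. Whether they moved with the marker sums above from library to library was not tested.

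The same comparison at 30 °C, which shares no library with that at 5 °C, called 6712 genes higher in BAT_30C (34.5%) and 6884 higher in WAT_30C (35.3%). With library totals the split was 2505 and 12875, 16.3% in favour of brown fat instead of 49.4%. Across genes, which are not independent replicates, the fold changes at the 2 temperatures correlated with a Pearson r of 0.855 and a Spearman rho of 0.818 (n = 19481). Of the genes higher in BAT_5C, 4899 were also called higher in BAT_30C, 79.0% of the 5 °C calls and 73.0% of those at 30 °C. Of those higher in WAT_5C, 5772 were shared (73.1% and 83.8%). Calls in opposite directions numbered 209 (brown higher at 5 °C) and 332 (white higher at 5 °C). The size of the difference was tested by its interaction with temperature: it shifted toward BAT at 5 °C for 1624 genes (8.34%) and toward WAT for 2431 (12.5%). Without WAT_5C replicate 1 these were 3121 (15.7%) and 3101 (15.6%), so that the split depended on that library. It was 2099 and 2056 with RLE size factors, 1080 and 2608 with library totals and 2548 and 2572 with DESeq2.

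Ucp1 separated the tissues more at 30 °C than in the cold. In WAT it was at 0.1786 ± 0.102 CPM at 30 °C and 150.1 ± 173 at 5 °C, and in BAT at 1326 ± 731 and 13050 ± 624, so the tissue difference at 5 °C was lower than that at 30 °C by a fitted -6.41 (adjusted p = 0.00198), -6.61 without WAT_5C replicate 1 and -5.25 without WAT_5C replicate 3. Cidea moved likewise (-4.64, adjusted p = 0.000893, and -5.35 without WAT_30C replicate 3), with 2.685 ± 2.09 CPM in WAT_30C and 1536 ± 296 in BAT_30C, as did Cox8b (-2.48, and -1.86 without WAT_5C replicate 1). For 9 of the 24 thermogenic genes the difference was smaller at 5 °C and for 3 it was larger, 7 and 5 without WAT_5C replicate 1. The larger count fell to 1 without BAT_30C replicate 3, WAT_30C replicate 2 or WAT_30C replicate 3. Gk was among these (1.85, adjusted p = 0.00633). Elovl3 was near 0 in both tissues at 30 °C (0.2873 ± 0.29 and 0.1974 ± 0.22 CPM), and its gain of 4.20 (adjusted p = 0.0271) did not pass without BAT_30C replicate 3 (3.86), WAT_30C replicate 2 (3.24) or WAT_30C replicate 3 (4.05), while it was 4.87 without BAT_30C replicate 2 and 4.90 without WAT_5C replicate 3. Ppara, the receptor that drives fatty acid oxidation, separated the tissues less at 5 °C (-3.90, adjusted p = 0.00141, and -3.27 without WAT_5C replicate 1), with 299.3 ± 78.3 CPM in BAT_30C and 131 ± 53 in BAT_5C.

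**Figure D5:**
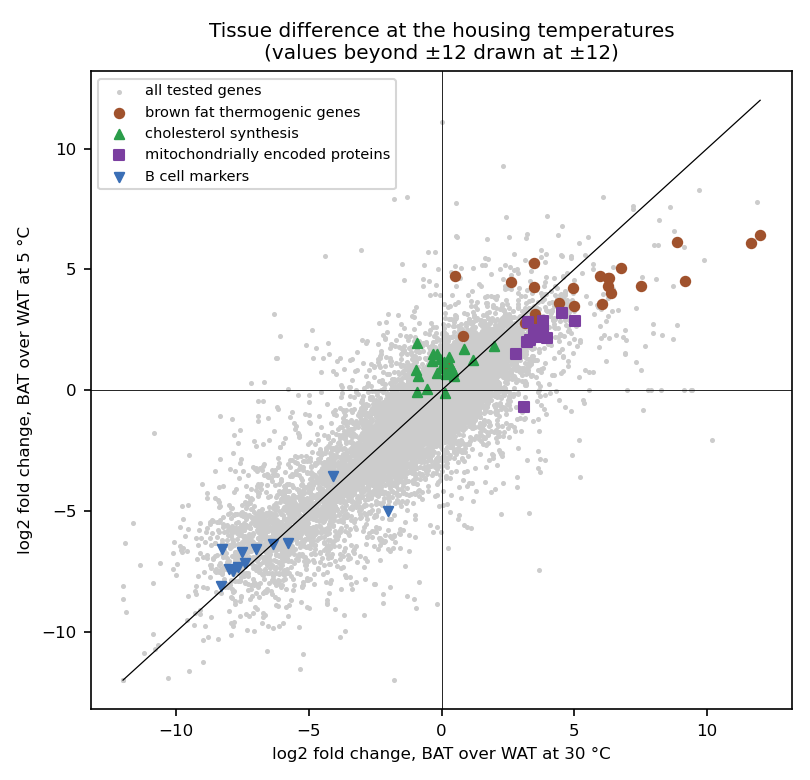
Log2 fold change of brown over white fat for 19481 genes at 30 °C (horizontal) and 5 °C (vertical), with 4 lists in colour and the line of equal difference. Thermogenic genes lie mostly below the line at the right, cholesterol synthesis genes above the line near 0 on the horizontal axis, and B cell markers near the line at the lower left.

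With TMM scaling, cholesterol synthesis was mostly higher in brown fat at 5 °C but not at 30 °C. At 30 °C 6 of its 22 genes were higher in BAT and 5 in WAT. The difference was larger at 5 °C for 13 and smaller for 0, against 8.34% and 12.5% of all genes. It was larger for 19 and smaller for 0 without WAT_5C replicate 1. With library totals, 6 genes of this list were higher in BAT_5C and 4 in WAT_5C (median 0.04, against -1.12 for all genes). Glycolysis shifted toward brown fat for 9 of 21 genes and away from it for 2. The 9 fell to 5 without BAT_30C replicate 3, BAT_5C replicate 3 or 4, WAT_30C replicate 3, or WAT_5C replicate 3 or 4. Hk1 was at 47.95 ± 2.29 CPM in BAT_30C and 59.29 ± 4.32 in WAT_30C and shifted by 2.94 (adjusted p = 3.66e-06). Acsl5 was at 66.81 ± 5.83 and 77.2 ± 5.39 CPM at 30 °C and shifted by 4.55 (adjusted p = 1.08e-07), Fasn by 2.24 (adjusted p = 0.00925), Ryr2 by 4.75 and Fndc5 by 3.56. In the other direction, Car3 was at 8210 ± 844 CPM in BAT_30C and 4879 ± 997 in WAT_30C, which became 924.6 and 6442 at 5 °C (-3.55, adjusted p = 0.000379). Cfd (-2.73) and Apoe (-2.44) shifted likewise. For 7 of the 16 white fat markers the difference was lower at 5 °C and for 0 higher.

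Shifts were ranked among 2148 genes called with and without WAT_5C replicate 1. These had at least 5 CPM in a group, no overlap of the tissues at 5 °C and no predicted gene name. The largest fitted shift toward brown fat among them was that of Rspo4 (9.69, and 11.56 without BAT_30C replicate 2). Beside Lor, those of Bmp8b (6.98, and 8.43 without BAT_30C replicate 1), Slco4a1, an organic anion transporter (6.70), Fam131c (5.98) and Tmem28 (5.06) followed. Rspo4 was at 0.004621 ± 0.00924 CPM in BAT_30C (1 count) and Bmp8b at 1.682 ± 2.14, so fitted sizes depend on few counts. Lor, a skin envelope protein, had a fitted shift of 9.48 that did not pass without any of 11 single libraries and was -0.10 without WAT_30C replicate 2, the source of its mean of 12.19 ± 24.4 CPM in WAT_30C. Large shifts toward white fat were those of Cdhr5 (-8.80, and -9.40 without BAT_5C replicate 1), Shisa7, Il22ra2, Calca, the calcitonin gene (-6.61, and -4.87 without WAT_5C replicate 2), and Fras1 (-6.55). Shisa7 and Il22ra2 had 0 counts in BAT_5C, so only bounds hold: shifts of at least 7.85 and 7.59 toward white fat, taking 3 counts over the 4 libraries as the floor and the fitted difference at 30 °C. Shisa7, Cdhr5 and Fras1 were at 5.992 ± 1.06, 11.62 ± 1.2 and 7.934 ± 1.65 CPM in BAT_30C and at 0, 0.02556 ± 0.0299 and 0.0976 ± 0.0379 in BAT_5C, while WAT stayed under 1 CPM on average at both temperatures.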

How the data were processed

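The authors deposited raw counts per gene (46078 Ensembl identifiers, 16 libraries). Per the submitters' processing notes, Trim Galore and TopHat were used, with no version stated. What counted the reads, with which strand setting, build and annotation, is not given in the sources used here. Overlapping, antisense and near-identical genes are therefore uncertain. Symbols matched by identifier for 45143 rows, and the 935 rows without one held at most 0.117% of a library's counts.

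Groups came from titles. All 16 libraries were fitted together in edgeR 4.0.16 (R 4.3.3): TMM scaling, filterByExpr (minimum count 10, minimum total 15), quasi-likelihood F-test and Benjamini-Hochberg adjustment over the 19481 genes tested, calling those under 0.05. The SE of a log2 fold change was its size divided by the root of the F statistic. CPM use TMM-scaled library sizes. Floors (3 counts over a group) and 95% Clopper-Pearson intervals cover counting error only. The steps were tested on simulated data. All 12 pairs of replicates differed by more than sampling noise.

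The comparison, the 46 lists (742 tested symbols) and the naming rule were chosen with earlier results of these data known. The rule names up to 6 members of each list with the smallest adjusted p and its role carriers, the 12 largest differences each way (at least 5 CPM, no overlap), the 10 highest genes per tissue, up to 6 shifts with temperature each way, and fixed paralog pairs. Alternatives were RLE size factors, library totals, no filter, DESeq2 1.42.0, limma-voom with sample quality weights (limma 3.58.1), an adjusted p of 0.01, a 2-fold minimum, the cold libraries alone, a replicate block and each library left out. Library totals without WAT_5C replicate 1 were added after seeing the data. Promoter windows came from RefSeq. A few genes under this rule were left out of the text. Its largest differences and shifts also had to be called with and without WAT_5C replicate 1 and have no predicted gene name. For the shifts, the limit of 5 CPM held in any group, and the tissues had not to overlap at 5 °C.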

Additional observations from a re-analysis of the deposited data

Results flagged for a closer look

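Several libraries lay far from the other 3 of their group by Dixon's test, which flags about 1 group in 20 by chance; 92 groups of values were looked at. WAT_5C replicate 1 was the odd library for Adrb3 (656 CPM), Hoxc10 (24.0), Car3 (12400), Adipoq (1810), Alpl (6.87), Atp2a1 (870) and Lpl (9220), for the Y-linked counts (17183), and for the summed markers of mature adipocytes (32110 CPM), mammary epithelium (78.06), skeletal muscle (6716) and red blood cells (254.2). BAT_5C replicate 1 was the odd library for Bmp8b (82.1 CPM), Adipoq (1020) and total counts (54264023).

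The tissue difference itself differed between the temperatures, by the interaction test, for the following genes. Shifts toward brown fat at 5 °C, on the log2 scale, were 9.69 for Rspo4, 9.48 for Lor, 6.98 for Bmp8b, 6.70 for Slco4a1, 5.98 for Fam131c, 5.06 for Tmem28, 4.75 for Ryr2, 4.55 for Acsl5, 4.20 for Elovl3, 3.56 for Fndc5, 2.94 for Hk1, 2.24 for Fasn and 1.85 for Gk. Shifts toward white fat were at least 7.85 for Shisa7 (bound of -7.85) and 7.59 for Il22ra2 (bound of -7.59), both with 0 counts in BAT_5C, and -8.80 for Cdhr5, -6.61 for Calca, -6.55 for Fras1, -6.41 for Ucp1, -4.64 for Cidea, -3.90 for Ppara, -3.55 for Car3, -2.73 for Cfd, -2.48 for Cox8b and -2.44 for Apoe. The call for Lor ended without any of 11 single libraries and that for Elovl3 without any of 3.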

How the results depend on the processing

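With a 2-fold minimum, 8671 genes differed at 5 °C instead of 14098, and 8156 instead of 13596 at 30 °C. The test of the shift with temperature, 4055 genes, gave 6797 with limma-voom and sample quality weights, 2109 at an adjusted p of 0.01, 2061 with a 2-fold minimum and 6222 without WAT_5C replicate 1. Leaving out each library in turn gave 13428 to 15125 genes at 5 °C, 12916 to 14443 at 30 °C and 3221 to 6222 for the shift. The share of mitochondrial counts then differed by 11.7 to 13.55 points, where no p under 0.0571 is possible. Equal replicate numbers were not taken as pairs. Their residual correlations were 0.2754, 0.007, 0.0579 and 0.0524, and those of unequal numbers ran from -0.2636 to 0.1357. These values cannot tell whether libraries of the tissues came from the same mice. A replicate block gave 13811, 13239 and 3384 genes. Fitting the 8 cold libraries alone gave 12274 of 17401 genes at 5 °C.

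With library totals the values of these genes changed sign: Cidec -0.47, Cox6a2 -0.14, Dgat2 -0.77, Fabp4 -0.14, Lpl -0.15, Nrg4 -0.12, Pecam1 -0.27, Prkar1a -0.14, Scd1 -0.73, Slc6a8 -0.19, Sqle -0.10 and Srebf1 -0.50. So did the medians of secreted factors (-0.097), adrenergic signalling (-0.044), lipid uptake (-0.097), clock (-0.425), insulin signalling (-0.712), stress response (-0.57), adipocytes (-0.142), endothelium (-0.162) and pericytes (-0.642). Without WAT_5C replicate 1 as well, secreted factors were at -0.036, adrenergic signalling -0.10, creatine 0.518, clock -0.413, insulin signalling -0.764, stress response -0.523, endothelium -0.141, pericytes -0.786 and muscle 2.287. Without that library alone the medians of creatine (1.552), nerve (0.015) and muscle (3.258) changed sign. The median of all genes was -1.12 with library totals, and -1.23 without WAT_5C replicate 1 as well.

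With the replicate block Acta1 became 0.35, Atp2a1 0.48, Atp5g3 0.0111, Ckm 0.38, Me1 0.11, Plin4 0.13 and mt-Co3 0.82. Ranges that crossed 0 when each cold library was left out were -1.38 to 3.42 for Acta1, -0.43 to 0.12 for Adipoq, -1.24 to 3.40 for Atp2a1, -0.22 to 0.21 for Atp5g3, -1.87 to 3.41 for Ckm, -0.36 to 2.97 for Cox6a2, -0.16 to 0.49 for Dgat2, -0.23 to 0.28 for Me1, -2.25 to 2.86 for Myh4, -0.40 to 0.56 for Plin4, -0.47 to 0.40 for Rbp4, -1.49 to 2.29 for Ryr1, -0.13 to 0.63 for Scd1, -0.21 to 0.0691 for Srebf2 and -1.11 to 1.06 for mt-Co3. None of these genes passed with all libraries. Of 264 genes followed singly, 263 kept their direction and call with RLE size factors and 231 with library totals; the cause was not tested beyond the shift of all genes by the scaling.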
